A study of Arabidopsis thaliana with 12 samples.

Results

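The genes described here are 10 nuclear genes of photosynthetic carbon fixation in Arabidopsis thaliana, taken by their identifiers from a fixed list, out of 37184 annotated genes in the count tables. They comprise the Rubisco small subunit genes RBCS1A (AT1G67090), RBCS1B (AT5G38430), RBCS2B (AT5G38420) and RBCS3B (AT5G38410), the Rubisco activase gene RCA (AT2G39730), the chloroplast glyceraldehyde-3-phosphate dehydrogenase (GAPDH) genes GAPA1 (AT3G26650), GAPA2 (AT1G12900) and GAPB (AT1G42970), the phosphoribulokinase gene PRK (AT1G32060) and the sedoheptulose-1,7-bisphosphatase gene SBPASE (AT3G55800). All 10 were present in the RNA-seq gene tables, the tables of flanking windows and the small RNA gene tables. They were grouped by function and not by a threshold on any value, with earlier results of these data known.

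The series compared xrn3-8, a mutant of the nuclear 5′-to-3′ exoribonuclease XRN3, with wild-type Col-0, and its title asks how termination of transcription by XRN3 bears on protein-coding genes. RNA-seq was made from 21-day seedlings grown on soil, with 3 libraries of xrn3-8 and 3 of Col-0. Small RNA was sequenced from younger seedlings, 14 days old and kept on MS plates, in 3 libraries of xrn3-8 and 3 of Col-0. The nature of the xrn3-8 allele is unstated in the sources used here, a single allele was studied, and no group holds a rescued line.

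In the Calvin cycle, Rubisco joins CO2 to ribulose-1,5-bisphosphate in the chloroplast stroma. The large subunit of Rubisco is encoded in the chloroplast, and the small subunits are encoded by a small nuclear gene family and imported. Rubisco activase removes inhibitory sugar phosphates from the active site. GAPDH made of A and B subunits carries out the NADPH-dependent reduction step, sedoheptulose bisphosphatase commits carbon to regeneration of the acceptor, and phosphoribulokinase makes the acceptor itself. Transcription of these nuclear genes is induced by light and follows the time of day. XRN3 degrades the RNA that stays attached to RNA polymerase II after the transcript has been cleaved at its 3′ end, and it removes several kinds of nuclear RNA.

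The RNA-seq libraries held 61604670 to 79845518 counts over genes, and chloroplast genes took 52.3% ± 2.23 of them in xrn3-8 and 52.4% ± 0.48 in Col-0 (SD, n = 3 each). The small RNA libraries held 5873199 to 7122245 counts over genes. XRN3 RNA averaged 20.5 ± 1.33 CPM (counts per 1e+06 counts over genes, with scaled library sizes) in xrn3-8 and 48.8 ± 0.21 CPM in Col-0, so it was lowered and still present. The design text calls the replicates biological. The leaf genes CAB1, PSBO1, PSAD1 and CA1, which mark photosynthetic tissue, were abundant in both genotypes.

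All 10 genes had less RNA in xrn3-8 than in Col-0 at 21 days. The change in level was -23.5% for RBCS1A, the most abundant member, and between -48.1% and -30.9% for the other 9. Each of the 10 passed edgeR's quasi-likelihood test with Benjamini-Hochberg adjustment over all 20653 genes tested, at an adjusted p under 0.05. In that test 17.4% of all genes were called lower in xrn3-8 and 15.9% were called higher. Among the 1919 nuclear genes that averaged at least 50 CPM, as these 10 do, 35.7% were called lower and 14.3% higher, with a median log2 fold change of -0.14. The 10 genes had a median log2 fold change of -0.76, against 0.0043 for all genes tested. In a bulk sample, fewer photosynthetic cells and less RNA per cell cannot be told apart.

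RBCS1A, the main small subunit gene of leaves, had 3671, 3244 and 3009 CPM in the xrn3-8 libraries, against 4275, 4567 and 4137 CPM in Col-0. The groups did not overlap, but the lowest Col-0 library stood close to the highest xrn3-8 library. Its log2 fold change, -0.39 with an SE of 0.12 (adjusted p = 0.027), was the smallest of the 10. This call was lost without Col-0 replicate 1 (adjusted p = 0.080), without Col-0 replicate 2 (adjusted p = 0.117), without Col-0 replicate 3 (adjusted p = 0.061) and without xrn3-8 replicate 3 (adjusted p = 0.097). It was also lost with libraries scaled by their total counts (-0.23, adjusted p = 0.090), a scaling that moved the median of all genes to 0.16.

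RBCS3B is the second most abundant small subunit gene. It had 1048, 1048 and 986 CPM in xrn3-8, against 1856, 1920 and 1635 CPM in Col-0, so every Col-0 library was far above the xrn3-8 libraries. Its log2 fold change was -0.81 (SE 0.10, adjusted p = 0.00018). RBCS2B fell as well (log2 fold change -0.90, SE 0.09, adjusted p = 5.4e-05), with 286, 299 and 276 CPM in xrn3-8, against 487, 536 and 579 CPM in Col-0. RBCS1B, the least abundant of the 4, had 182, 187 and 173 CPM in xrn3-8, against 332, 313 and 300.2 CPM in Col-0. Its log2 fold change was -0.80 (SE 0.08, adjusted p = 4.9e-05), and the groups did not overlap.

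The 4 small subunit genes summed to 4803 ± 373 CPM in xrn3-8 and 6979 ± 343 CPM in Col-0 (SD, n = 3 each). As a share of all nuclear gene counts they took 1.07% ± 0.0714 in xrn3-8 and 1.40% ± 0.0602 in Col-0. RBCS2B and RBCS1B are neighbours in the reference gene order, and the small subunit genes resemble each other in sequence. Reads that fit several copies equally well were not assigned, and reads that fit better in a related copy can be credited to it, so the split among the 4 is less certain than their sum. RBCS2B also had 22.0% ± 5.59 more counts in xrn3-8 and 21.5% ± 2.01 more in Col-0 (SD, n = 3 each) when the genes were counted in the table with the flanking windows. For RBCS1A this excess was 4.27% ± 0.407 in xrn3-8 and 4.19% ± 0.341 in Col-0. The counts of the window table gave the same calls for all 10 genes.

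RCA had the largest fall of the 10. It had 1070, 919 and 924 CPM in xrn3-8, against 1771, 1918 and 1922 CPM in Col-0 (log2 fold change -0.95, SE 0.10, adjusted p = 7.8e-05). The activase RNA in the mutant was therefore 1.93-fold lower, and no xrn3-8 library came near the Col-0 range. Its span overlaps that of AT2G39725 in the reference, and use of the strand in counting is unstated in the sources used here. AT2G39725 had 614 counts over the xrn3-8 libraries and 465 over the Col-0 libraries, far below RCA.

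The 3 chloroplast GAPDH genes had log2 fold changes between -0.71 and -0.53. GAPA1, which encodes an A subunit, had 850.5, 842 and 791 CPM in xrn3-8, against 1214, 1284 and 1239 CPM in Col-0 (log2 fold change -0.59, SE 0.09, adjusted p = 0.00068). GAPA2, the other A subunit gene, had 482, 526 and 458 CPM in xrn3-8, against 788, 874 and 738 CPM in Col-0 (log2 fold change -0.71, SE 0.10, adjusted p = 0.00039). GAPB, the gene of the redox-regulated B subunit, had 635, 567 and 530 CPM in xrn3-8, against 823, 870 and 815 CPM in Col-0 (log2 fold change -0.53, SE 0.10, adjusted p = 0.0019). In all 3 genes the lowest Col-0 library was above the highest xrn3-8 library.

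PRK showed the tightest replicates. It had 339, 341 and 321 CPM in xrn3-8, against 616, 623 and 619 CPM in Col-0 (log2 fold change -0.89, SE 0.08, adjusted p = 2.6e-05). SBPASE, the other gene of the regeneration phase, also fell (log2 fold change -0.62, SE 0.09, adjusted p = 0.00062). It had 309, 363 and 315 CPM in xrn3-8, against 498, 531 and 487 CPM in Col-0. RCA and the 5 other Calvin cycle genes together summed to 3528 ± 175 CPM in xrn3-8 and 5876 ± 201 CPM in Col-0 (SD, n = 3 each). These 6 genes, RBCS1B, RBCS2B and RBCS3B kept their calls in all 12 alternatives run, which included total-count scaling and the omission of each library.

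**Figure D1:**
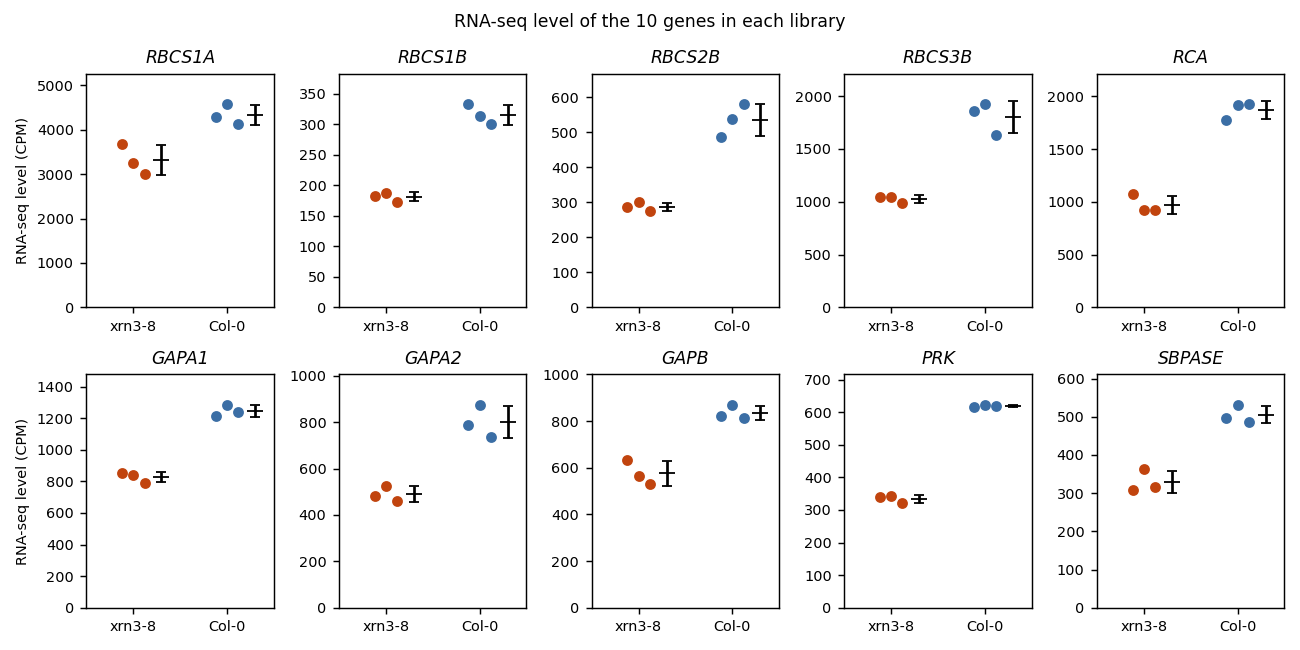
RNA-seq level in CPM of each of the 10 genes (vertical axes, each from 0), with 1 point per library, xrn3-8 left and Col-0 right, and the mean ± SD beside the points (n = 3 each). The 3 xrn3-8 points lie below the 3 Col-0 points in every panel, by the narrowest relative margin for RBCS1A, with 3671 CPM as the highest xrn3-8 value and 4137 CPM as the lowest Col-0 value.

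Complete separation of the groups in the lower direction was found for all 10 genes, and for 24.0% of all genes tested. The 10 genes together took 1.86% ± 0.10 of nuclear gene counts in xrn3-8 and 2.58% ± 0.0785 in Col-0 (SD, n = 3 each).

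The estimated falls of the members differed in size, which was examined with 5 ratios of counts within a library. RBCS1A over the sum of the other 3 small subunit genes was 2.42, 2.11 and 2.096 in xrn3-8, against 1.598, 1.65 and 1.65 in Col-0, so every xrn3-8 library was above every Col-0 library. RBCS1A thus provided 68.8% ± 1.72 of small subunit counts in xrn3-8 and 62.0% ± 0.416 in Col-0 (SD, n = 3 each). The share of RBCS3B was 21.4% ± 1.08 in xrn3-8 and 25.8% ± 1.101 in Col-0. The difference in the RBCS1A ratio was 0.44 on the log2 scale, with p = 0.1 in an exact two-sided permutation test over the 6 libraries, which is the smallest p that 3 against 3 allows. With Benjamini-Hochberg adjustment over the 5 ratios this became 0.167, so this test could not pass the threshold whatever the separation.

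SBPASE over PRK was 0.986 ± 0.0755 in xrn3-8 and 0.816 ± 0.0336 in Col-0 (SD, n = 3 each), again without overlap, a log2 difference of 0.27 (exact p = 0.1, adjusted 0.167). The summed A subunit genes over GAPB were 2.29 ± 0.168 in xrn3-8 and 2.45 ± 0.0309 in Col-0, a log2 difference of -0.10 with no overlap (exact p = 0.1, adjusted 0.167). GAPA1 over GAPA2 was 1.70 ± 0.0854 in xrn3-8 and 1.56 ± 0.107 in Col-0, and the groups overlapped (log2 difference 0.12, exact p = 0.2, adjusted 0.25). RBCS1B over RBCS3B was 0.176 ± 0.00259 in xrn3-8 and 0.175 ± 0.0109 in Col-0, with a log2 difference of 0.0095 (exact p = 1) and overlapping groups.

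**Figure D2:**
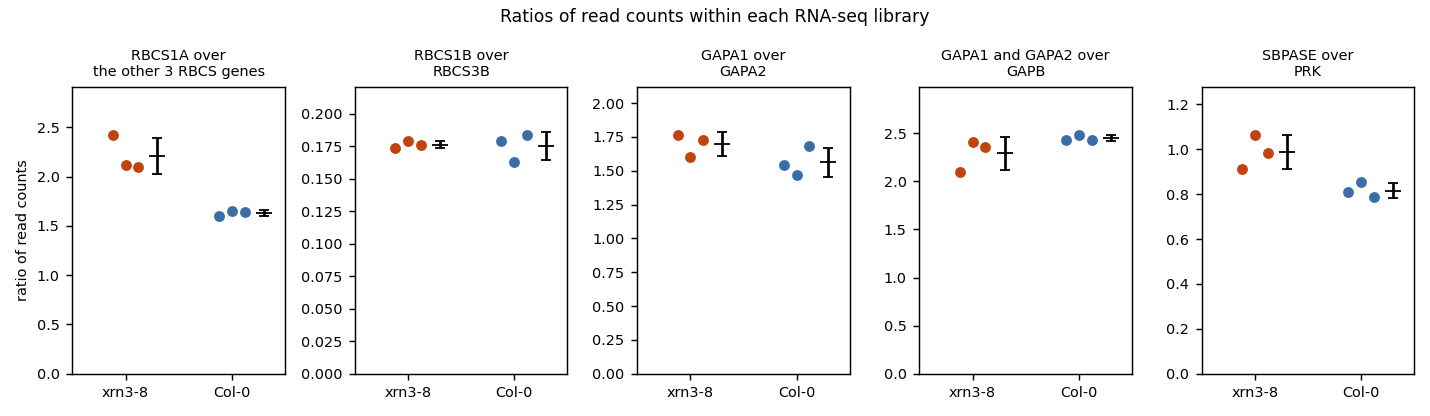
The 5 ratios of counts within a library (vertical axes), with 1 point per library, xrn3-8 left and Col-0 right, and the mean ± SD (n = 3 each). RBCS1A over the other small subunit genes and SBPASE over PRK lie higher in all 3 xrn3-8 libraries than in any Col-0 library, and RBCS1B over RBCS3B, at 0.176 in xrn3-8 and 0.175 in Col-0, overlaps.

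Levels of different genes were set side by side as CPM per kilobase of gene span, introns included. RBCS1A stood at 2191 ± 222 CPM per kb in xrn3-8 and 2865 ± 145 in Col-0 (SD, n = 3 each), and it ranked 3 of 20469 nuclear genes in both genotypes. In xrn3-8 the order after it was RBCS3B (621 ± 21.4), GAPA1 (379 ± 14.7), RCA (329 ± 29.0), RBCS2B (246 ± 10.2), GAPA2 (242 ± 17.1), GAPB (227 ± 20.9), SBPASE (140 ± 12.6), PRK (137 ± 4.59) and RBCS1B (84.0 ± 3.35). The libraries of GAPA1 and RCA overlapped, as did those of RBCS2B and GAPA2, of GAPA2 and GAPB, and of SBPASE and PRK.

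In Col-0 the order after RBCS1A was RBCS3B (1090 ± 90.2 CPM per kb), RCA (635 ± 29.1), GAPA1 (570 ± 16.4), RBCS2B (458 ± 39.4), GAPA2 (397 ± 34.3), GAPB (329 ± 11.7), PRK (254 ± 1.39), SBPASE (215 ± 9.76) and RBCS1B (146 ± 7.50). RBCS2B and GAPA2 were the only neighbours in this order whose Col-0 libraries overlapped. Apart from RBCS1A, which kept its rank, and GAPA1, which ranked 28 in xrn3-8 and 30 in Col-0, the genes stood lower among nuclear genes in the mutant. RBCS1B ranked 252 in xrn3-8 and 158 in Col-0, PRK 131 and 78, SBPASE 128 and 96, GAPB 72 and 57, GAPA2 66 and 43, RBCS2B 63 and 35, RCA 41 and 25, and RBCS3B 10 and 9.

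Related genes were read from lists by function. Of 15 other Calvin cycle enzymes and CP12 proteins, 9 were called lower and the other 6 were not called, with a median log2 fold change of -0.34. Total-count scaling left 5 lower and 1 higher, and the number called lower was 6 without Col-0 replicate 2 and 6 without xrn3-8 replicate 3. FBA1, a plastid aldolase, fell the most, to 160 ± 27.6 CPM in xrn3-8, against 330 ± 12.6 CPM in Col-0 (log2 fold change -1.04, adjusted p = 8.6e-05). FBA2, the more abundant plastid aldolase, averaged 406 ± 85.5 CPM in xrn3-8 and 620 ± 32.6 CPM in Col-0 (-0.61, adjusted p = 0.0057). CP12-2, which binds phosphoribulokinase and chloroplast GAPDH into an inactive complex, had a log2 fold change of -0.59 (adjusted p = 0.0002).

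PGK1, a chloroplast phosphoglycerate kinase, and HCEF1, the chloroplast fructose bisphosphatase, had log2 fold changes of -0.35 (adjusted p = 0.017) and -0.33 (adjusted p = 0.018). Both calls were lost without Col-0 replicate 2 (adjusted p = 0.096 for PGK1 and 0.094 for HCEF1), without xrn3-8 replicate 3 (0.068 and 0.081) and with total counts (0.107 and 0.137). TKL1, a plastid transketolase, averaged 666 ± 60.6 CPM in xrn3-8 and 645 ± 27.1 CPM in Col-0 (SD, n = 3 each), with a log2 fold change of 0.05 (adjusted p = 0.75).

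The genes that fold and assemble Rubisco did not all move one way. Of 11 tested, 6 were called lower and 1 higher (median -0.29). The number called lower was 3 with total counts, 3 without Col-0 replicate 2 and 3 without xrn3-8 replicate 3, and it was 4 without Col-0 replicate 1 and 4 without xrn3-8 replicate 1. RbcX1 and RbcX2 encode assembly chaperones of the large subunit and went in opposite directions. RbcX1 rose to 19.2 ± 4.89 CPM in xrn3-8, against 11.01 ± 2.08 CPM in Col-0 (log2 fold change 0.80, adjusted p = 0.0068). RbcX2 fell to 24.6 ± 0.567 CPM in xrn3-8, against 36.0 ± 1.57 CPM in Col-0 (-0.55, adjusted p = 0.0003). AT5G28500, which has no symbol in the reference table, had a log2 fold change of -0.66 (adjusted p = 0.00022). The chloroplast gene of the Rubisco large subunit, ATCG00490, is not among these 11 and is not listed in that table. It changed by -0.07 on that scale (SE 0.18, adjusted p = 0.79). Its sign turned with total counts (0.08) and without xrn3-8 replicate 3 (0.01).

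Chloroplast thioredoxins switch GAPDH, phosphoribulokinase and sedoheptulose bisphosphatase on in the light. Of 9 genes of this system, 4 were called lower and 5 were not called (median -0.18), and with total counts 2 were called lower. The f-type thioredoxins TRXF2 (-0.71, adjusted p = 0.00016) and TRXF1 (-0.52, adjusted p = 0.0016) fell the most. Photorespiration recycles the product of the oxygenase reaction of Rubisco. Of its 12 genes 10 were called lower and 2 were not called (median -0.46). The number called lower was 7 with total counts, 8 without Col-0 replicate 2, 8 without xrn3-8 replicate 3 and 11 with DESeq2. The 10 called lower included the glycine decarboxylase P-protein gene GLDP2 (-0.86, adjusted p = 0.00084) and the glycolate oxidase gene GOX1 (-0.84, adjusted p = 5.5e-05). GLDP1, the more abundant P-protein gene, averaged 592 ± 99.3 CPM in xrn3-8 and 566 ± 13.6 CPM in Col-0. It was not called (0.06, adjusted p = 0.71), and its sign turned without xrn3-8 replicate 1 (-0.07).

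The GAPDH genes outside the Calvin cycle allow a comparison within the enzyme family. Of 5, 1 was called higher and 2 lower, with a median log2 fold change of -0.03. GAPC1, a cytosolic glycolytic GAPDH, averaged 404 ± 49.2 CPM in xrn3-8 and 412 ± 14.6 CPM in Col-0 (-0.03, adjusted p = 0.86). GAPCP1, a glycolytic GAPDH of plastids, rose to 22.2 ± 2.02 CPM in xrn3-8, against 11.6 ± 0.369 CPM in Col-0 (0.93, adjusted p = 4e-05). GAPC2 (-0.36, adjusted p = 0.013) and the non-phosphorylating GAPDH gene ALDH11A3 (-0.37, adjusted p = 0.0034) fell, and total counts left neither of them called. Without Col-0 replicate 2, GAPC2 was not called (adjusted p = 0.056). The difference between these genes and GAPA1, GAPA2 or GAPB was not tested.

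**Figure D3:**
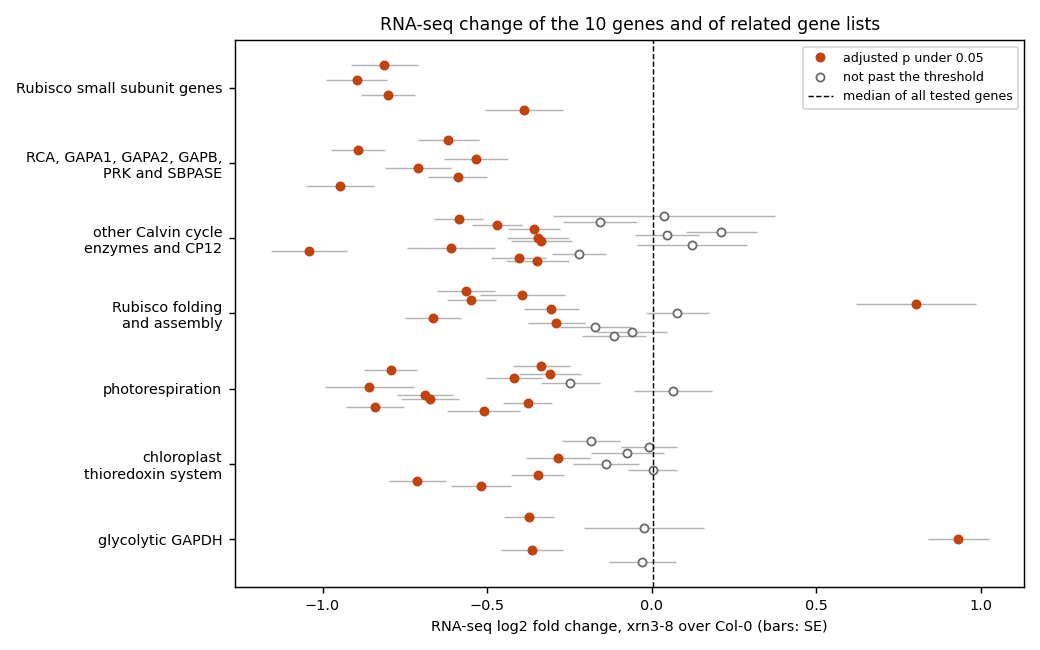
Log2 fold change of xrn3-8 over Col-0 (horizontal axis) for every tested gene of 7 lists (rows: the 10 genes in 2, and 5 lists of related genes), with 1 point per gene, grey bars for the SE, filled points for an adjusted p under 0.05 and a dashed line at the median of all genes tested. The small subunit genes and the 6 Calvin cycle genes of the first 2 rows lie between -0.95 and -0.39, the other 5 lists reach closer to the line, and RbcX1 (0.80) and GAPCP1 (0.93) stand to its right.

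Regulators of these genes and markers of tissue, cell type and time of day moved in part with them. Among 8 light and plastid regulators, 5 were called lower and 1 higher (median -0.48). HYH, a bZIP factor of light signalling related to HY5, fell to 1.81 ± 0.427 CPM in xrn3-8, against 10.03 ± 2.03 CPM in Col-0 (log2 fold change -2.47, adjusted p = 1.2e-05). The G-box factor GBF3 fell by 1.03 on the log2 scale (adjusted p = 2.5e-05). GBF2 rose by 0.29 (adjusted p = 0.026), a call that was lost in 5 of the 6 fits that left out a library, all but that without xrn3-8 replicate 1. GLK2, an activator of chloroplast genes, had a log2 fold change of -0.97 (adjusted p = 0.00016), and its partner GLK1 one of -0.04 (adjusted p = 0.88), which turned positive with total counts and without Col-0 replicate 3 or xrn3-8 replicate 2. HY5 itself was near 2 CPM, at 1.38 ± 0.315 CPM in xrn3-8 and 2.27 ± 0.446 CPM in Col-0 (-0.72, adjusted p = 0.038), and that call was lost with total counts and in every fit that left out a library except that without xrn3-8 replicate 1. The regulator list kept 3 genes called lower without any 1 Col-0 library, 3 without xrn3-8 replicate 3 and 3 with total counts.

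Of 8 clock genes, 4 were called higher and 3 lower. CCA1, a morning gene, averaged 11.6 ± 1.04 CPM in xrn3-8 and 59.6 ± 7.98 CPM in Col-0 (log2 fold change -2.36, adjusted p = 6.9e-07), and LHY, its partner, had a log2 fold change of -2.33 (adjusted p = 1.3e-06). TOC1, an evening gene, averaged 77.8 ± 3.23 CPM in xrn3-8 and 29.1 ± 1.03 CPM in Col-0 (1.42, adjusted p = 1.1e-06). ELF4, another evening gene, had 91, 129 and 122 counts in xrn3-8, against 4, 0 and 1 counts in Col-0. Harvest times are unstated in the sources used here.

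The leaf markers summed to 4947 to 7261 CPM in xrn3-8 and 5915 to 7235 CPM in Col-0, and 1 of 4, CA1, was called lower (-0.35, adjusted p = 0.027). That call was lost with total counts and in every fit that left out a library except those without Col-0 replicate 1 or xrn3-8 replicate 2. DESeq2 called 3 of the 4 lower, adding PSBO1 (-0.31, adjusted p = 0.043) and PSAD1 (-0.22, adjusted p = 0.041), and without xrn3-8 replicate 1 edgeR called PSBO1 lower as well (-0.48, adjusted p = 0.0081). All 4 dividing cell markers were called higher, with a median of 0.96 and a summed level of 38.9 to 42.2 CPM in xrn3-8, against 20.5 to 22.6 CPM in Col-0. CDKB1;1 lost its call in every fit that left out a library except that without xrn3-8 replicate 1. Of 3 guard cell markers none was called by edgeR, none had an unadjusted p under 0.05 and DESeq2 called none. Of 3 vascular markers 1, SEOR1, was called lower, and total counts added SUC2 and APL as higher. Root markers summed to 61.2 to 111.8 CPM in xrn3-8 and 84.5 to 134.9 CPM in Col-0, nearly all of it from PYK10, while COBL9, EXPA7 and NRT2.1 were near 0 in both. WOX5, at 0.273 CPM in xrn3-8 and 0.053 CPM in Col-0, was called higher, but not without Col-0 replicate 2, Col-0 replicate 3 or xrn3-8 replicate 3, and PYK10 was called lower without Col-0 replicate 2 and without xrn3-8 replicate 3. Among 3 flower markers tested PI was called higher, with 1.94 ± 0.778 CPM in xrn3-8 and 0.16 ± 0.0493 CPM in Col-0. AP3, at 0.071 CPM in xrn3-8 and 0.227 CPM in Col-0, was called lower without xrn3-8 replicate 1 (adjusted p = 0.018). Without Col-0 replicate 2, 1 flower marker was called lower, and it was not AP3. Among 4 senescence markers NAC6 was called higher (0.46, adjusted p = 0.0065) and NYE1 lower (-0.64, adjusted p = 0.00073). SAG12 was added as higher without Col-0 replicate 1 and with the replicate number as a block (2.87, adjusted p = 0.019). The part of regulators, clock phase and tissue composition in the lower RNA of the 10 genes was not tested.

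The genes whose profile over the 6 RNA-seq libraries was most like the mean of the 10 were sought among 1909 other nuclear genes of at least 50 CPM. Likeness was the root mean square difference of centred log2 CPM. The 5 nearest were HCF107 (0.0346), GGT1 (0.0354), PMDH2 (0.0392), CLA1 (0.0396) and HDR (0.0427). HCF107 serves chloroplast RNA processing, GGT1 and PMDH2 are peroxisomal enzymes of photorespiration, and CLA1 and HDR are the first and the last enzyme of plastid isoprenoid precursor synthesis. HCF107 averaged 41.6 ± 2.70 CPM in xrn3-8 and 68.6 ± 3.75 CPM in Col-0. Among the 10 themselves this difference ran between 0.0614 for GAPA2 and 0.174 for RBCS1A, which was the farthest from their mean.

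The RNA-seq reads were also counted over windows named 500 and the gene identifier, 1 for each gene, on a side that the sources used here do not state. Over these windows the 10 genes together had more reads in xrn3-8 than in Col-0, opposite to their gene bodies. The summed counts were 205, 251 and 358 in xrn3-8, against 37, 35 and 31 in Col-0. As a share of the counts in the 10 gene bodies this was 0.0428% ± 0.0123 in xrn3-8 and 0.00413% ± 0.00029 in Col-0 (SD, n = 3 each). Over all windows of the series the share was 0.349% ± 0.0421 in xrn3-8 and 0.177% ± 0.00728 in Col-0. That share is of the counts of all genes, including the chloroplast genes that took over 50% of them, so the 2 shares have unlike denominators. The windows of the 10 genes thus held few reads relative to their genes in both genotypes.

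The window of RBCS1A held most of the reads, with 121, 151 and 220 counts in xrn3-8, against 31, 21 and 27 counts in Col-0. Every xrn3-8 library was several times above every Col-0 library. The log2 fold change of the window was 2.38 (SE 0.28, adjusted p = 1.8e-06), scaled by the gene table. The window-to-gene ratio rose as well (log2 change 2.76, SE 0.39, adjusted p = 3.6e-05, interaction test). The window amounted to 0.0645% ± 0.0215 of the gene counts in xrn3-8 and 0.00935% ± 0.00232 in Col-0.

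The RBCS3B window had 18, 13 and 27 counts in xrn3-8, against 0, 1 and 0 in Col-0. With a single read in Col-0 the scaled ratio of counts was 49.2, with an exact 95% interval of 8.48 to 1974 that covers counting error only. The fit gave an adjusted p of 4.4e-05 for the window and 2.4e-05 for the window-to-gene ratio. Its fitted log2 fold change of 5.21 (SE 0.83) became 7.19 without Col-0 replicate 2, the library with that read. The GAPA2 window had 29, 15 and 26 counts in xrn3-8, against 1, 3 and 2 in Col-0 (log2 fold change 3.26, SE 0.63, adjusted p = 0.00027). Its window-to-gene ratio also rose (log2 change 3.95, SE 0.59, adjusted p = 6.4e-05). The windows of RBCS3B and GAPA2 were tested only because of their xrn3-8 reads, so these p-values are no support beyond the counts.

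These 3 windows passed the filter on low counts, and all 3 were called higher. Of all windows tested 49.3% were called higher and 1.61% lower, and of all window-to-gene ratios 51.1% and 0.400%. The windows of RBCS3B and GAPA2, with at most 3 reads in a Col-0 library, passed through their xrn3-8 reads, so their calls add nothing to the counts themselves. The windows of RBCS2B and GAPA1 also passed and were called, which made 5, when any 1 Col-0 library or xrn3-8 replicate 1 was left out. With at most 7 reads in a Col-0 library, they too passed through their xrn3-8 reads, so these calls add nothing to their counts. With the windows scaled on their own counts, RBCS1A alone was called (1.55, adjusted p = 0.00017), and those of RBCS3B and GAPA2 did not pass the filter.

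The other 7 windows were not tested and are given as counts. GAPA1 had 7, 25 and 17 counts in xrn3-8, against 1, 2 and 1 in Col-0, a scaled ratio of 10.4 with an exact 95% interval of 3.81 to 39.6. RBCS2B had 7, 32 and 23 counts in xrn3-8, against 3, 7 and 1 in Col-0, a scaled ratio of 4.78 (2.49 to 10.1), and its lowest xrn3-8 and highest Col-0 library held the same count. RCA had 8, 11 and 14 counts in xrn3-8 and 0 in every Col-0 library, which is at least 9.32-fold higher against a floor of 3 counts over the group.

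GAPB had 4, 4 and 6 counts in xrn3-8 and 0 in every Col-0 library, at least 3.95-fold higher. RBCS1B had 5, 0 and 13 counts in xrn3-8 and 0 in every Col-0 library, at least 5.08-fold higher over the group, with 1 xrn3-8 library at 0. PRK had 5, 0 and 12 counts in xrn3-8, against 1, 1 and 0 in Col-0, a scaled ratio of 7.20 (1.71 to 64.3) with overlapping groups. SBPASE had 1, 0 and 0 counts in xrn3-8 and 0 in every Col-0 library, so a difference was not detectable at this depth. In scaled counts the xrn3-8 libraries were all above the Col-0 libraries for 7 of the 10 windows, and for 30.1% of all windows with a count. RBCS2B is among the 7 by the scaling alone. The 30.1% is over a set that includes windows with too few reads to separate the groups, such as that of SBPASE.

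**Figure D4:**
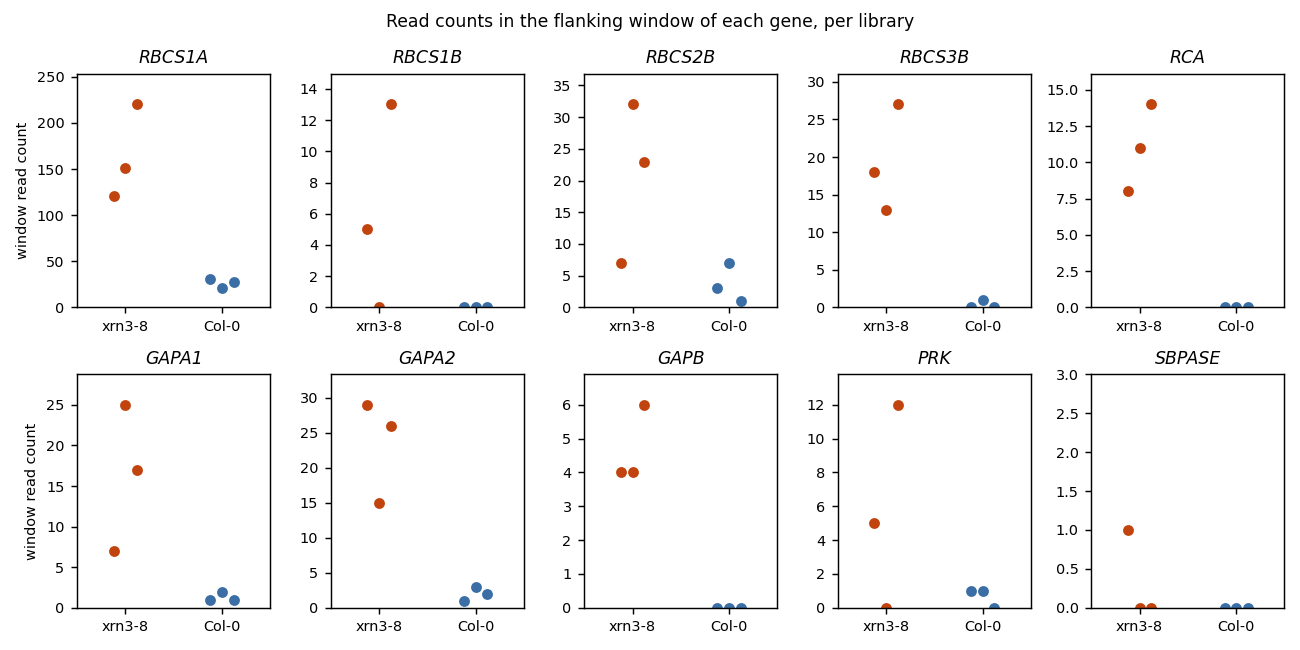
Counts over the flanking window of each of the 10 genes (vertical axis), with 1 point per library, xrn3-8 left and Col-0 right. RBCS1A reaches 121 to 220 counts in xrn3-8 and 21 to 31 in Col-0, the other windows hold at most 32 counts in xrn3-8 and at most 7 in Col-0, and SBPASE holds 1 count in all.

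Genes next to the 10 in the reference gene order were examined for the same direction. Of 18 such neighbours that are not members, 14 had a count and 8 could be tested. Of these 8, 3 were called lower and the other 5 were not called, against 17.4% called lower over all genes tested. Those lower were ABA4 beside RBCS1A, HESO1 beside RCA and NSI beside PRK. The span of NSI overlaps that of PRK, and the span of LWD2, which was not called (adjusted p = 0.82), overlaps that of GAPA1. Among those too low to test, LBD24 beside GAPA1 had 9, 14 and 5 counts in xrn3-8 and 0 in every Col-0 library, at least 7.91-fold higher. AT1G12890 beside GAPA2 had 20, 12 and 16 counts in xrn3-8, against 6, 8 and 0 in Col-0, a scaled ratio of 2.91 (exact 95% interval 1.58 to 5.71). The noncoding gene AT1G07143 beside GAPB had 6, 4 and 5 counts in xrn3-8, against 1, 0 and 1 in Col-0 (6.36, 1.48 to 57.3). In the other direction, LBD40 beside RBCS1A had 0, 0 and 1 counts in xrn3-8, against 1, 4 and 4 in Col-0, a scaled ratio of 0.0942 (0.00215 to 0.680). These 4 were singled out after their counts were seen.

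Small RNA over the 10 genes did not separate the genotypes at 14 days. In every one of the 10 genes the xrn3-8 and Col-0 libraries overlapped, whereas 23.0% of all tested genes had groups apart in either direction. Of the 8 genes that passed the filter none was called by edgeR, none had an unadjusted p under 0.05, and DESeq2 called none of the 10. Over all genes tested 7.22% were called. The median log2 fold change of the 8 was -0.18, against -0.0017 for all genes tested.

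RBCS1A carried the most small RNA, with 431, 345 and 169 counts in xrn3-8, against 312, 490 and 411 counts in Col-0 (log2 fold change -0.34, SE 0.40, adjusted p = 0.80). RBCS3B had 244, 180 and 143 counts in xrn3-8, against 181, 244 and 227 in Col-0 (-0.19, SE 0.29, adjusted p = 0.85). RBCS1B had 221, 168 and 131 counts in xrn3-8, against 169, 217 and 200 in Col-0 (-0.16, SE 0.28, adjusted p = 0.88). RBCS2B had 134, 104 and 83 counts in xrn3-8, against 120, 131 and 128 in Col-0 (-0.23, SE 0.26, adjusted p = 0.78).

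The 4 small subunit genes summed to 179, 119 and 71.0 CPM in xrn3-8, against 107, 172 and 158 CPM in Col-0. In these scaled values the first xrn3-8 library was the highest of the 6 and the third the lowest, so the spread among the mutant libraries was wider than the distance between the genotypes. The first place depends on the scaling factors, 0.808 for that xrn3-8 library and 0.963 for the second Col-0 library. The counting of small RNA reads with several positions is unstated in the sources used here, so the values of these related genes may not be independent.

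Of the Calvin cycle genes, RCA had 249, 155 and 145 small RNA counts in xrn3-8, against 115, 194 and 186 in Col-0 (log2 fold change 0.16, SE 0.35, adjusted p = 0.91). GAPA1 had 80, 49 and 23 counts in xrn3-8, against 28, 39 and 41 in Col-0 (0.52, SE 0.50, adjusted p = 0.74). PRK had 70, 65 and 48 counts in xrn3-8, against 34, 45 and 50 in Col-0 (0.50, SE 0.30, adjusted p = 0.51). GAPB had 14, 7 and 9 counts in xrn3-8, against 11, 18 and 25 in Col-0 (-0.86, SE 0.49, adjusted p = 0.48). GAPA2, with 17, 4 and 11 counts in xrn3-8 and 3, 3 and 13 in Col-0, and SBPASE, with 8, 10 and 6 in xrn3-8 and 8, 8 and 9 in Col-0, were too low to test. The standard errors of 0.26 to 0.50 on the log2 scale mean that differences as large as those of the RNA-seq levels could be missed in small RNA.

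**Figure D5:**
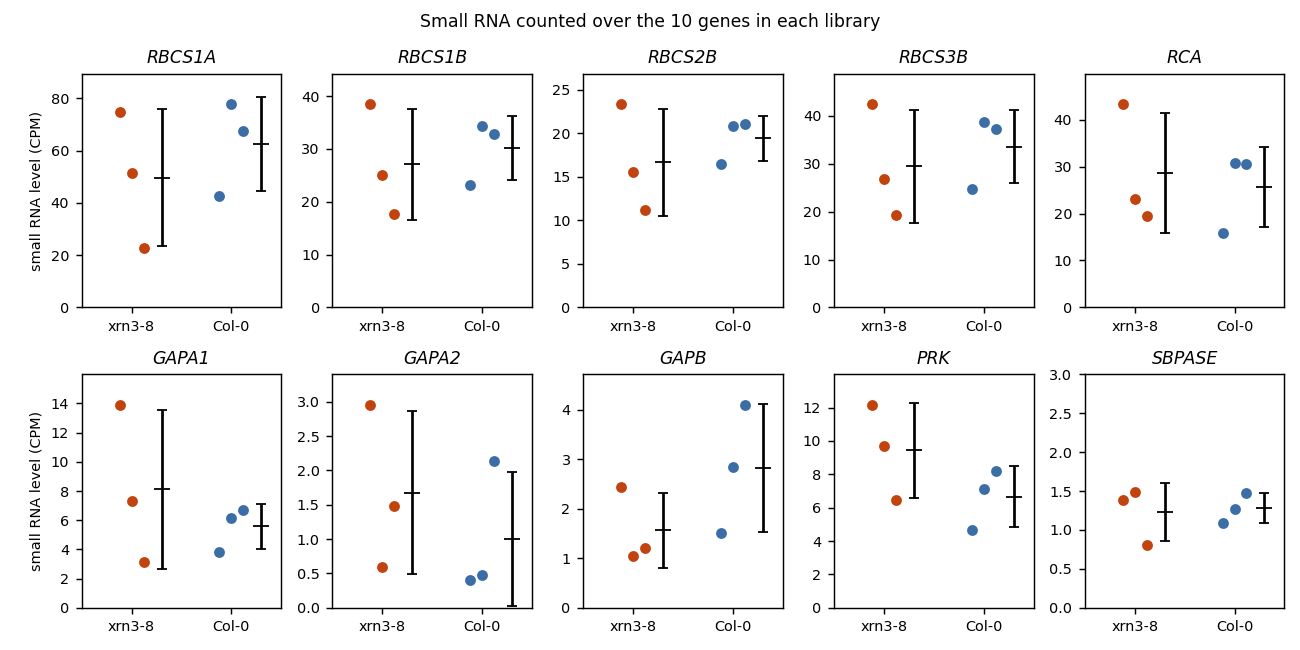
Small RNA level in CPM over each of the 10 genes (vertical axes, each from 0), with 1 point per library, xrn3-8 left and Col-0 right, and the mean ± SD beside the points (n = 3 each). The groups overlap in every panel, and the xrn3-8 points spread most for RBCS1A, with 431, 345 and 169 counts behind them.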

How the data were processed

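The deposited tables hold whole-number read counts per gene or window, made by the authors and not normalized. Per the submitters' processing notes, HISAT2, HTSeq, bedtools and DESeq2 were used for RNA-seq, Bowtie, HTSeq, bedtools and DESeq2 for small RNA, and TAIR10 as the build; their versions and settings are unstated in the sources used here. The labels' protocols name a stranded total RNA kit with depletion of ribosomal RNA. Tallies of unassigned reads (22.7% to 26.3% of the RNA-seq and 74.6% to 77.1% of the small RNA totals) stayed out of library sizes and tests.

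Counts were tested with edgeR 4.0.16 in R 4.3.3 (filterByExpr with a minimum count of 10, TMM factors, quasi-likelihood test, two-sided, Benjamini-Hochberg over all features, threshold 0.05), after tests on simulated data. Windows were scaled by the gene table. Window-to-gene ratios were tested as the region-by-genotype interaction with a term for each library, where the gene averaged 10 counts or more. CPM are counts per 1e+06 with scaled library sizes. DESeq2 1.42.0 served as an alternative. Ratios within a library were tested by exact permutation with scipy 1.17.1. Floors of 3 counts and exact 95% intervals cover counting error only. Chloroplast genes are listed at 0 in the small RNA tables.

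The 10 genes and all lists were chosen with earlier results of these data known. From each list the text names the 2 largest rises and the 2 largest falls past the threshold plus 12 preset genes. GLDP1 was added afterwards as the paralogue of GLDP2. From the marker lists only the genes that bear on composition are named. Gene names and spans come from a RefSeq table of TAIR10.1, which matched 36899 of 37184 identifiers. Its coordinates are not printed, and no sequence was used.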

Additional observations from a re-analysis of the deposited data

How the results depend on the processing

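RNA-seq called 6882 genes, 5302 to 6696 with a library left out and 6904 to 7673 in the other alternatives. The gene counts of the window table were an alternative added after the data were seen. With total counts 5458 were higher and 2215 lower, against 3289 and 3593 with TMM factors, and the members' median became -0.60. The windows called (1488) became 3531 with DESeq2, 3575 with a filter of at least 1 count and 1430 to 2036 with a library left out; among the members 3 became 7, 8 and 3 to 5, and 1 with windows scaled on themselves, where fewer windows of members passed the filter. Window-to-gene ratios (1418) became 3122 with at least 1 count and 1369 to 1935 with a library left out, and those of members 9 and 3 to 5. The member windows and ratios added with a library left out passed the filter through their xrn3-8 reads. Small RNA genes called (653) became 1223 with at least 1 count and 325 to 619 with a library left out.

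With the replicate number as a block, 7281 RNA-seq genes, 1370 windows, 1333 ratios and 191 small RNA genes were called, and no call of a member changed. In RNA-seq, libraries with the same number deviated together weakly (r of 0.0497, 0.142 and 0.0997), and each correlated best with its own number. In small RNA they did not do so in every pair (r of -0.449, 0.041 and -0.15). What libraries of the same number share was not tested.

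In small RNA, leaving out libraries gave log2 fold changes of -0.758 to -0.0039 for RBCS1A, -0.541 to -0.0227 for RBCS2B, -1.29 to -0.499 for GAPB, 0.277 to 0.703 for PRK, -0.497 to 0.0551 for RBCS1B and -0.542 to 0.0248 for RBCS3B, the last 2 positive without xrn3-8 replicate 3. They were -0.263 to 0.352 for RCA, negative without xrn3-8 replicate 1 and without Col-0 replicate 1 (-0.121), and -0.104 to 0.904 for GAPA1, negative without xrn3-8 replicate 1. None of these was called in any of these fits, and the cause was not tested. Depth limits the windows of SBPASE, PRK and RBCS1B and the small RNA of GAPA2 and SBPASE.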
